A study of Homo sapiens with 4 samples.

Results

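Untreated OVCA420 cells were divided by their own SPP1 level, and all other genes were compared between the cells with the most and the cells with the least SPP1. OVCA420 is an established human epithelial ovarian cancer cell line. Single-cell RNA-seq (10x Genomics 3′ chemistry) had been performed on untreated OVCA420 cells (Ctrl) and on OVCA420 cells given TGF-β1 at 10 ng/mL for 1, 3 or 7 days, with 1 library per condition. TGF-β1 was used by the study to induce an epithelial-mesenchymal transition (EMT), and Ctrl was its untreated reference. For each retained Ctrl cell, SPP1 was expressed as unique molecular identifiers (UMIs) per 10000 UMIs of that cell. Cells at or above the 75th percentile were called SPP1-high and cells at or below the 25th percentile SPP1-low. This gave 234 SPP1-high and 234 SPP1-low cells, among 933 retained Ctrl cells and 3144 retained cells of all 4 libraries. SPP1 itself chose the cells, so its difference between the classes is a description of the choice and carries no test.

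SPP1 encodes osteopontin, a secreted, highly phosphorylated glycoprotein. It was first studied as a component of bone matrix, and it is also made by macrophages, activated T cells and many carcinomas. Its RGD motif binds integrins such as αvβ3, αvβ5 and αvβ6, it is also a ligand of CD44, and thrombin and matrix metalloproteinases cut it into fragments with other binding properties. In ovarian cancer it is known as a protein that can be measured in blood and ascites.

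SPP1 (ENSG00000118785) lies on the plus strand at chr4:87975667-87983532 of GRCh38 (GENCODE release 44). The sequence before its start is shown because the level of SPP1 defines both classes. The sequence before CXCL8 is shown beside it because CXCL8, on the same chromosome, was among the genes with the largest ratios in SPP1-high cells. Both come from RefSeq (GRCh38.p14) and cover bases -250 to -51 relative to the RefSeq start, 5′ to 3′ on the plus strand. Capitals mark matches, on either strand, to the RUNX letters TGTGGT, the AP-1 letters TGANTCA and the NF-kB letters GGANNTTCC.
SPP1, chr4:87975464-87975663: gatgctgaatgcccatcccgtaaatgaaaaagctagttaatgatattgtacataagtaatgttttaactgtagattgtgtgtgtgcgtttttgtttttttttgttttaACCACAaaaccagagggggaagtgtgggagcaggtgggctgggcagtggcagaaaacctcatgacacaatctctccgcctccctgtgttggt
CXCL8, chr4:73740319-73740518: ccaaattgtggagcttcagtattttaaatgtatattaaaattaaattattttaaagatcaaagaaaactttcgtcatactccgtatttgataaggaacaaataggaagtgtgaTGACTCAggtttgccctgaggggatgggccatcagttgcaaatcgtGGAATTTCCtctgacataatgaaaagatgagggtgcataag

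The SPP1 window held 1 RUNX match, at base -142, and none of the other letters. CXCL8 held an AP-1 match at base -137 and an NF-kB match at base -91. Among 27305 RefSeq promoters, one per gene symbol and searched over the 250 bases before the start, 10.9% held the RUNX letters, 6.60% the AP-1 letters and 3.88% the NF-kB letters. A match is a run of letters and was not tested as a binding site.

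Every retained Ctrl cell held SPP1: none of the 933 lacked an SPP1 UMI, and the cell with the fewest had 15. The 933 came from the first 941 complete cells of 3372 Ctrl barcodes, and all Ctrl values describe those cells. Summed over the 933 cells, SPP1 stood at 4001 counts per 1000000 UMIs (CPM, exact Poisson 95% interval 3979 to 4024). Per 10000 UMIs the cells ran from 10.1 through a median of 36.3 to 449.9, and the quartiles were 27.7 and 47.2, a ratio of 1.70. SPP1-low therefore means less SPP1, not absence of SPP1. The mean was 69.9 ± 43.1 (SD over 234 cells) in SPP1-high cells and 21.8 ± 4.02 in SPP1-low cells. SPP1-high cells held 40.0% of the SPP1 UMIs of the 933 cells. At the upper limit, the lowest SPP1-high cell had 47.16 and the next cell below it 47.08. At the lower limit, the highest SPP1-low cell had 27.69 and the next cell above it 27.75, so neither limit fell in a gap. The 1-day, 3-day and 7-day libraries held less SPP1 (1350, 1165 and 1413 CPM), also with no cell at 0, and their quartiles lay further apart, with ratios of 2.41, 2.08 and 2.18.

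**Figure D1:**
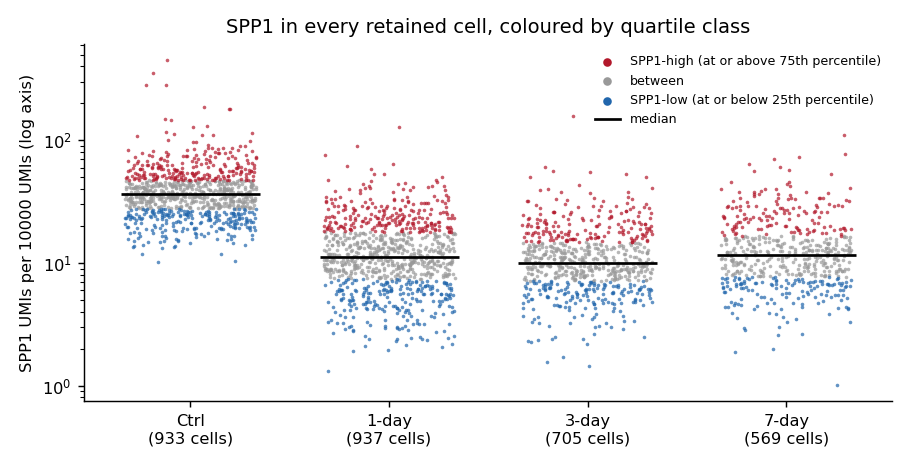
SPP1 UMIs per 10000 UMIs (log axis) in each retained cell of the 4 libraries, 1 point per cell. Red and blue points are the SPP1-high and SPP1-low cells of that library, grey points lie between the quartiles, and black lines are medians (36.3 in Ctrl); the Ctrl cells form 1 continuous distribution with a few cells far above it.

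The classes differed in depth and in cell cycle phase. SPP1-high cells had a median of 27282 UMIs and 5057 genes, cells between the quartiles 31031 UMIs, and SPP1-low cells 32924 UMIs and 5328 genes. Phases were assigned from S and G2M gene scores. SPP1-high cells were in G2M less often, with 29.1% (exact binomial 95% interval 23.3 to 35.3) against 44% (37.6 to 50.6) of SPP1-low cells, and these intervals did not overlap. S shares were 47.0% (40.5 to 53.6) and 35.9% (29.8 to 42.4), and G1 shares 23.9% (18.6 to 29.9) and 20.1% (15.1 to 25.8); both pairs of intervals overlapped. With every cell thinned to 18000 UMIs, a depth that 203 SPP1-high and 209 SPP1-low cells reached, the G2M shares were 31.5% and 47.4%. Median mitochondrial shares were 8.06% and 8.24%, and 2 cells of each class were marked as doublets. All intervals given here cover counting error only, and with 1 Ctrl library the spread between cultures is unknown.

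OVCA420 cells of both classes carried epithelial genes. All 8 epithelial markers were detected, with a summed level of 4749 CPM in SPP1-high and 4160 CPM in SPP1-low cells. KRT19 differed most (1518 CPM against 982 CPM), and EPCAM, KRT7, KRT8 and CDH1 also stood higher in SPP1-high cells. KRT18 (832 CPM against 902 CPM), ELF3 (221 CPM against 315 CPM) and CLDN4 (186 CPM against 236 CPM) stood lower. The ovarian carcinoma markers were below 3 CPM except SOX17 at 69.3 CPM and MECOM at 14.7 CPM; PAX8 stood at 0.333 CPM and WT1 had no UMI. Because SPP1 is a macrophage and bone gene, those markers were also read. The 8 macrophage markers summed to 2.62 CPM in SPP1-high and 4.08 CPM in SPP1-low cells, with CD163, CSF1R and TYROBP at 0. Of 5 osteoblast markers, RUNX2, SP7, BGLAP and IBSP had no UMI, and ALPL stood at 0.0667 CPM. Fibroblast, endothelial, smooth muscle and lymphocyte markers summed to between 0.965 and 5.65 CPM in SPP1-high cells.

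Among 2586 genes with at least 50 CPM over all Ctrl cells, SPP1 left out, 131 (5.07%) were at least 0.5 higher on the log2 scale in SPP1-high cells and 22 (0.851%) at least 0.5 lower. Differences were small: 6 genes were higher by 1 or more and 1 was lower by as much. The median log2 ratio of all compared genes was 0.08, so most genes (64.9%) stood above 0. Scaling by median-of-ratios factors in place of total UMIs shifted every ratio down by 0.10 and divided the genes past 0.5 into 67 higher (2.59%) and 55 lower (2.13%). The CPM of the cells between the quartiles lay between SPP1-high and SPP1-low for 130 of the 131 higher genes and all 22 lower genes. These genes were chosen by their ratio between the outer classes, so an intermediate middle class was largely set by that choice. The share of all compared genes in such an order was not computed. When the cells were divided into those with earlier and those with later barcodes, all 131 higher genes stood above 0 in both sets, and 77 of them at 0.5 or more in both. All 22 lower genes stood below 0 in both sets, 11 of them at -0.5 or less in both. The genes were chosen on both sets together, so these counts describe spread and are no independent check.

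**Figure D2:**
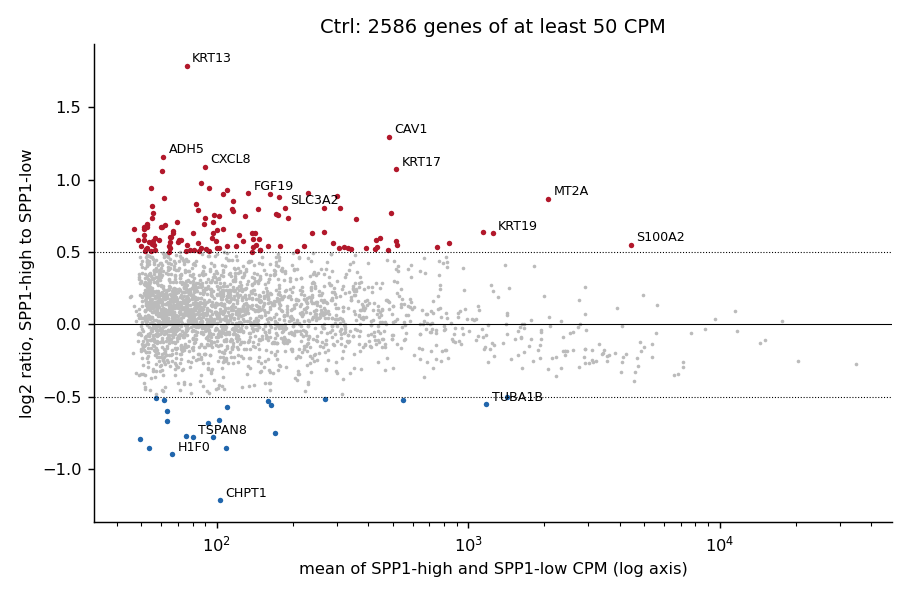
Log2 ratio of CPM in SPP1-high to SPP1-low Ctrl cells for 2586 genes, against the mean CPM of both classes (log axis), 1 point per gene. Dotted lines mark 0.5 and -0.5; 131 genes lie on or above the upper line (red) and 22 on or below the lower one (blue), and KRT13 at 1.79 and CHPT1 at -1.22 lie farthest out.

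KRT13, a keratin of stratified mucosal epithelium, had the largest ratio of all compared genes. It stood at 117 CPM in SPP1-high cells, 59.7 CPM between the quartiles and 34.0 CPM in SPP1-low cells, a log2 ratio of 1.79 (95% counting interval 1.59 to 1.99). Its UMIs were concentrated in few cells: the median cell of either class had 0, and 5 cells held 36.03% of the SPP1-high and 45.7% of the SPP1-low UMIs. Without those 5 cells of each class the ratio was 2.02. Among G1 cells alone it turned to -0.64, and among S and G2M cells it was 2.64. For every ratio within a phase, the SPP1 quartiles were set anew among the cells of that phase. In Ctrl, G1 held few cells: 56 of the SPP1-high, 93 of the middle and 47 of the SPP1-low cells. KRT17, a keratin of basal and stressed epithelium, stood at 700 CPM, 337 CPM and 333 CPM in the same order of classes, so the cells between the quartiles stood close to the SPP1-low cells. KRT19, a keratin of simple and ductal epithelium, stood at 1518 CPM, 1115 CPM and 982 CPM in the same order, a log2 ratio of 0.63 (0.59 to 0.67). KRT8 and KRT18, the common pair of simple epithelium, had log2 ratios of 0.12 and -0.12. KRT15, at 93.7 CPM over all Ctrl cells, had -0.07 (-0.22 to 0.09). Of 13 squamous epithelium genes 1 reached 50 CPM, with a log2 ratio of 0.21. Of 7 keratins compared, 3 were past 0.5 upward, against 5.07% of all compared genes, and none downward, with a median of 0.28. KRT14, below the 50 CPM limit, had 182 UMIs in SPP1-high and 15 in SPP1-low cells, and 64.3% of the 182 came from 5 cells.

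The second largest ratio was that of CAV1, the main protein of caveolae. CAV1, at chr7:116524994-116561179, stood at 686 CPM in SPP1-high, 418 CPM between and 280 CPM in SPP1-low cells. Its log2 ratio was 1.29 (1.22 to 1.37) and ranged from 0.85 to 1.72 over the alternatives. The median cell held 15 CAV1 UMIs in SPP1-high and 5 in SPP1-low cells, so the difference did not rest on a few cells. TSPAN1 and TSPAN7, members of the tetraspanin family of membrane organizers, had log2 ratios of 0.98 and 0.83, while TSPAN8 of the same family had -0.78. ANXA10, an annexin, stood at 122 CPM against 63.8 CPM (0.94). SLC3A2, the heavy chain shared by several amino acid transporters, stood at 237 CPM against 136 CPM (0.81), and SLC7A11, the cystine transporter that pairs with it, at 401 CPM against 280 CPM (0.52). TP63, a transcription factor of basal epithelium, stood at 79.7 CPM against 43.5 CPM (0.87). Matrix genes THBS1 (thrombospondin) and LAMB3 (a laminin chain), the only 2 of the extracellular matrix list above the limit, were past 0.5 with 0.80 and 0.61.

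Genes of secreted proteins lay on both sides of 0. CXCL8, a neutrophil chemokine, stood at 122 CPM in SPP1-high, 86.0 CPM between and 57.4 CPM in SPP1-low cells, a log2 ratio of 1.09 (0.92 to 1.26), and CXCL1, a related chemokine, at 144 CPM, 121 CPM and 75.5 CPM (0.93, 0.78 to 1.08). The CXCL8 ratio was 1.94 among G1 cells alone and 0.57 among S and G2M cells. The median cell held 1 CXCL8 UMI in SPP1-high and 0 in SPP1-low cells. In each class 5 cells held 23.6% and 28.4% of its UMIs, and without them the ratio was 1.18. CXCL8 and CXCL1 were the only 2 of 19 NF-kB targets above 50 CPM. Members below that level lay on both sides of 0: CCL20 had a log2 ratio of 0.67, NFKBIA 0.04, CXCL2 -0.28 and TNFAIP2 -0.76. FGF19, a secreted fibroblast growth factor with endocrine action, stood at 173 CPM against 92.6 CPM (0.90), FST (follistatin, which binds activins) at 138 CPM against 73.6 CPM (0.90), and TGFB1 at 106 CPM against 61.6 CPM (0.79). Among direct TGF-β response genes, ID1 had -0.25, PMEPA1 0.02 and ID2 -0.01.

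Metallothioneins and NRF2 targets are lists of metal and redox genes. MT2A, a metallothionein that binds zinc and copper, was abundant at 2683 CPM in SPP1-high, 2323 CPM between and 1473 CPM in SPP1-low cells (log2 ratio 0.87, 0.83 to 0.90), and MT1X had 0.58. Of 10 NRF2 targets compared, 2 were past 0.5 upward (AKR1C3 at 0.64 and SLC7A11 at 0.52), against 5.07% of all compared genes, and none downward, with a median of 0.31. AKR1C3 stood at 0.49 in thinned cells and 0.34 among G1 cells alone; TXNRD1, thioredoxin reductase, had -0.36. ALDH3A1, an aldehyde dehydrogenase, stood at 212 CPM against 114 CPM (0.90), and ADH5, which oxidizes the glutathione adduct of formaldehyde, at 84.5 CPM against 37.9 CPM (1.16, but 0.39 among G1 cells alone). AKR1C1, AKR1C2 and AKR1C3 have similar sequences, so some reads could match more than 1 of them and their separate values are uncertain. The same holds for the metallothioneins, the HLA class I genes and some keratins, whose sequences are alike. Of 9 hypoxia and glycolysis genes, 3 were past 0.5: the glucose transporter SLC2A1 (0.78), the peptide hormone ADM (0.58) and the glycolytic enzyme ENO1 (0.57). Among lysosomal genes 2 of 6 were, the protease CTSD (0.62) and the granulin precursor GRN (0.54), and CTSH, a cathepsin outside that list, had 0.90. HSPA5, an endoplasmic reticulum chaperone, had 0.59 but -0.11 among G1 cells alone.

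The genes lower in SPP1-high cells were fewer. CHPT1, an enzyme of phosphatidylcholine synthesis, stood at 61.6 CPM in SPP1-high, 86.6 CPM between and 143 CPM in SPP1-low cells, a log2 ratio of -1.22 (-1.38 to -1.06). H1F0, a linker histone of resting cells, had -0.90, and CAMK2N1, an inhibitor of calcium/calmodulin-dependent kinase II, -0.86. MEIS2, a homeobox factor, had -0.79, the tetraspanin TSPAN8 -0.78 and clusterin (CLU), a secreted chaperone, -0.77. EIF4EBP1, a repressor of cap-dependent translation, stood at 127 CPM against 214 CPM (-0.76), TRIB3, a target of amino acid stress, at 78.7 CPM against 125 CPM (-0.66), and ATF4, the factor upstream of TRIB3, at 137 CPM against 188 CPM (-0.45). ELF3, an epithelial transcription factor, had -0.52. Among G1 cells alone TSPAN8 had -0.37 and ELF3 -0.27, inside the limit. SLPI, a secreted protease inhibitor under the 50 CPM limit, had 58 UMIs in SPP1-high and 291 in SPP1-low cells (-2.21, -2.65 to -1.80), whereas in the treated libraries it was called higher (1.25 ± 0.23, edgeR adjusted p = 0.021).

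Few of osteopontin's own partners reached 50 CPM. Of 11 receptor genes, ITGB1 (log2 ratio 0.24) and ITGB5 (0.46) passed 50 CPM. ITGAV, the αv chain, stood at 52.7 CPM in SPP1-high and 37.5 CPM in SPP1-low cells (0.49, 0.27 to 0.72), and ITGB6, the β6 chain, at 38.8 CPM and 20.8 CPM (0.90, 0.61 to 1.19). ITGB8 had 0.42 (0.05 to 0.80), CD44 -0.04 (-0.25 to 0.17), ITGA5 1.33 CPM over all cells, and ITGA8 0.0333 CPM. ITGB3, ITGA4 and ITGA9 had no UMI, so the αvβ3 pair was not detectable at this depth. Of 10 processing enzymes CTSB alone passed 50 CPM (-0.14, -0.31 to 0.04). MMP7 stood at 30.9 CPM against 43.0 CPM (-0.48), TGM2 at 12.8 CPM against 18.2 CPM (-0.51) and MMP9 at 2.21 CPM against 1.79 CPM, while FAM20C, MMP2 and MMP12 had no UMI and MMP3, F2 and ACP5 stood at 0.5 CPM or less. The neighbours of SPP1 that encode related bone and tooth phosphoproteins, IBSP, DMP1, DSPP and MEPE, were at 0 in both classes. Of 18 transcription factors linked to SPP1, MYC (0.22) and CTNNB1 (-0.06) passed the limit, and RUNX2, GLI2 and LEF1 had no UMI.

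Several lists held no gene past 0.5. Of all compared genes 5.07% were past it upward and 0.851% downward, so none among 3 to 7 genes does not set a list apart. Among lists with at least 3 genes compared, these were the AP-1 and immediate early genes (5 compared, median 0.22), heat shock (7, median 0.29), cholesterol synthesis (7, median 0.12), p53 targets (3, median 0.12), HLA class I (3, median 0.34), the EGFR ligands and receptors (3, median 0.29) and mitosis (6, median -0.05). The median of all compared genes was 0.08. No interferon-stimulated gene, no YAP and TEAD target and no mineralised tissue gene reached 50 CPM. Of 6 epithelial genes ELF3 alone was past 0.5, downward, with EPCAM at 0.42 and CDH1 at 0.18, and VIM, a mesenchymal intermediate filament gene, had no UMI in Ctrl.

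Over the 933 Ctrl cells, the genes whose log-normalized values were most correlated with SPP1 were ITM2B (Pearson's r 0.44), a membrane protein processed by furin, CTSH (0.43), CAV1 (0.42), SLC3A2 (0.40), PRSS23 (0.39), AKR1C3 (0.38), FAM213A (0.36), ATP1B3 (0.34), ENO1 (0.34) and MT2A (0.33). These are correlations over cells of 1 library that share its depth and its denominator, so they describe these cells and have no p-value. KRT13, first by ratio, had r of 0.16.

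The AP-1 letters stood before a number of the higher genes. Of the 131 higher genes 105 had a RefSeq promoter, and 11 of these (10.5%) held TGANTCA, against 86 of 1999 compared genes (4.30%). The RUNX letters were in 4 of the 105 (3.81%, against 6.85%) and the NF-kB letters in 6 (5.71%, against 3.50%). The antioxidant response element letters TGACNNNGC, known from NRF2 targets, were in 6 (5.71%, against 12.4%). The AP-1 stretches of SLC3A2 and MT2A below fit these letters at the same bases, so the AP-1 and antioxidant counts are not separate. No test was made of these shares, which are descriptions of letters. The stretches with the AP-1 letters in capitals, each with 10 bases on either side and written on the gene's own strand, are given for CXCL8, SLC3A2, MT2A and S100A2:
CXCL8, chr4:73740422-73740448, plus strand: ggaagtgtgaTGACTCAggtttgccct
SLC3A2, chr11:62881652-62881678, plus strand: cgagggtgggTGACTCAgcgtcctcct
MT2A, chr16:56608470-56608496, plus strand: gagccgcaagTGACTCAgcgcggggcg
S100A2, chr1:153565880-153565906, minus strand: gagtgggctgTGACTCAcaggcatgtc
S100A2, a calcium-binding protein of basal epithelium, was among the most abundant of the higher genes, at 5272 CPM in SPP1-high and 3606 CPM in SPP1-low cells (0.55). The AP-1 subunit genes themselves differed little, with JUNB at 0.30, FOSL2 at 0.26 and JUN at 0.22.

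The ratios also differed by chromosome, a pattern chosen for description after the values were seen. Chromosome 4, which carries SPP1, had the highest median: its 85 compared genes had a median log2 ratio of 0.35 (order-statistic 95% interval over genes 0.29 to 0.39), 82 of the 85 (96.5%) stood above 0 against 64.9% of all compared genes, and 19 (22.4%) were past 0.5 against 5.07%. The 8 genes within 10 Mb of SPP1 had a median of 0.36 and the other 77 a median of 0.35. This is 1 window with few genes, and it leaves out CXCL8, CXCL1, ADH5 and EIF4E, so a local difference was not tested. Chromosome 12 had the lowest median, -0.16 (-0.20 to -0.11) over 143 genes, of which 36 (25.2%) stood above 0. The remaining chromosomes had medians from -0.04 (chromosome 22) to 0.20 (chromosome 13). The genes on chromosome 4 past 0.5 included CXCL8, CXCL1, ADH5, ANXA10 and SLC7A11 beside genes of unrelated roles such as the annexin ANXA5 (0.65), the translation factor EIF4E (0.52) and the signal peptidase subunit SPCS3 (0.63). On chromosome 7, with a median of 0.13 over 138 genes, 13 (9.42%) were past 0.5, against 5.07% of all compared genes. Other chromosomes, such as chromosome 13, had higher medians, and with median-of-ratios scaling the chromosome 7 median was 0.025. The 13 lie on the long arm, but the compared genes of each arm were not counted, so this has no background beside it. Among them were CAV1, the cell cycle kinase CDK6 (0.88), sorcin (SRI, 0.80) and the Golgi transport factor BET1 (0.82). CHPT1, TSPAN8, SMAGP (-0.78), TMPO (-0.53) and TUBA1B (-0.55) lie on chromosome 12.

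The same was seen cell by cell. A score was computed as the mean over the compared genes of a chromosome of their standardized log-normalized values, SPP1 left out. The chromosome 4 score averaged 0.14 ± 0.23 (SD over cells) in SPP1-high, 0.017 ± 0.30 between and -0.17 ± 0.30 in SPP1-low Ctrl cells, and the chromosome 12 score -0.10 ± 0.24, 0.0043 ± 0.25 and 0.09 ± 0.25. Over the 933 cells the chromosome 4 score had r of 0.35 with log SPP1, 0.05 with log depth and -0.56 with the chromosome 12 score. The chromosome 12 score had r of -0.23 with log SPP1 and 0.22 with log depth, and SPP1-low cells were the deeper class. In thinned cells the chromosome 12 median was -0.15. In median, chromosome 4 genes took 2.11% of UMIs in SPP1-high and 1.63% in SPP1-low cells, and chromosome 12 genes 4.09% and 5.32%. At 1-day, with the cells divided by SPP1 in that library, the chromosome 4 median was 0.36 with 80 of 85 genes above 0, and that of chromosome 12 was -0.22. At 3-day and 7-day it was -0.05 and -0.17 for chromosome 4, with 37 and 26 of 85 genes above 0, and -0.03 and 0.05 for chromosome 12. The difference between libraries was not tested, and 1 library per condition cannot tell the condition from the culture.

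**Figure D3:**
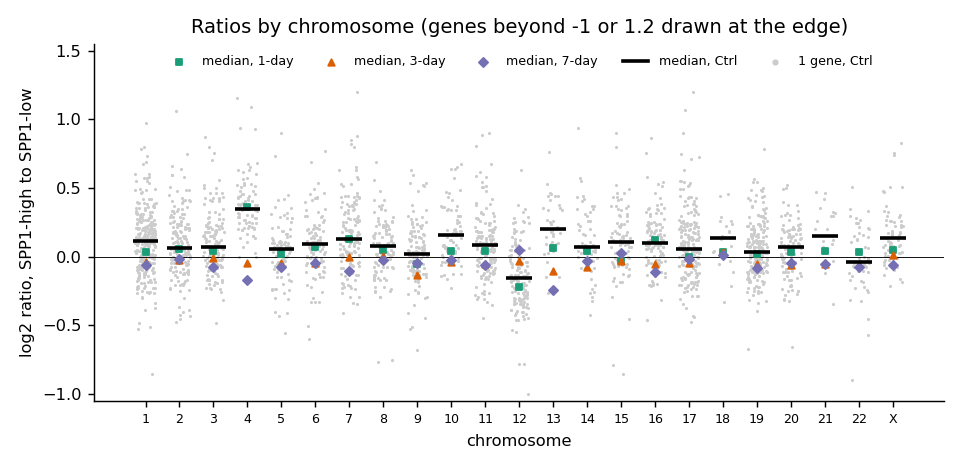
Log2 ratio of SPP1-high to SPP1-low Ctrl cells by chromosome, 1 grey point per compared gene, with the Ctrl median as a black line and the medians of the same genes in the 1-day, 3-day and 7-day libraries as coloured symbols. Chromosome 4 has the highest Ctrl median (0.35) and chromosome 12 the lowest (-0.16); the 1-day medians lie close to them and the 3-day and 7-day medians do not.

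The treated libraries, which had no part in choosing the Ctrl cells, allowed a test. Within each of the 1-day, 3-day and 7-day libraries SPP1-high and SPP1-low cells were defined by the quartiles of that library (235, 177 and 143 cells per class), UMIs were summed per class, and the classes were compared over the 3 libraries with edgeR's quasi-likelihood test, with the library as a block. The block takes up differences in level between the libraries. The 3 libraries are 3 time points, so the adjusted p-values rest on the spread of the class difference over these 3 libraries only. Of 12071 genes 198 (1.64%) were higher and 194 (1.61%) lower in SPP1-high cells at a Benjamini-Hochberg adjusted p below 0.05. The counts depended on the libraries: 26 and 14 genes without the 3-day library, 687 and 643 without the 1-day library. They were 14 and 6 among G1 cells alone and 0 and 0 without the library block.

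The genes that differed in Ctrl partly recurred. Of the 131 genes higher in SPP1-high Ctrl cells, 30 (22.9%) were called higher in the treated libraries. Of the 2586 genes compared in Ctrl, 105 (4.06%) were called in that direction. The 30 are 15.2% of the 198, but only 105 of the 198 were compared in Ctrl and could be among the 131. 1 of the 131, LMO4, was called lower. Of the 22 genes lower in Ctrl, 4 (18.2%) were called lower, against 4.06% of the compared genes. They were HIST1H4C, SAPCD2, TUBA1B and H1F0 (named after their values were seen). The 4 are 2.06% of the 194, of which only 105 were compared in Ctrl. TSPAN8 was called higher. Of the 131, 82 had log2 ratios above 0 in all 3 treated libraries. The share of all compared genes that did so was not computed, so this count has no background beside it. The median log2 ratio of all compared genes was 0.03 at 1-day, -0.04 at 3-day and -0.06 at 7-day.

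KRT19 recurred in each library. It stood at 1326 CPM in SPP1-high and 742 CPM in SPP1-low cells at 1-day, 785 CPM and 430 CPM at 3-day, and 835 CPM and 452 CPM at 7-day, a log2 difference of 0.85 ± 0.07 (SE; edgeR adjusted p = 0.0024). SPP1-high cells were above SPP1-low cells in each library, as in Ctrl. KRT13 was low in these libraries, at 9.71 CPM or less. Its log2 ratio was 1.49 (0.86 to 2.15) at 1-day, 0.95 (0.01 to 1.95) at 3-day and -0.14 (-1.84 to 1.52) at 7-day. It was not called (1.05 ± 0.30, edgeR adjusted p = 0.10), and KRT17 was not called either (0.20 ± 0.11, adjusted p = 0.39). KRT14 (0.74 ± 0.14, edgeR adjusted p = 0.023) and KRT15 (0.62 ± 0.12, edgeR adjusted p = 0.028) were called higher. Of 12 keratins tested, 3 were called higher and 0 lower, with a median log2 difference of 0.31, against 1.64% of all 12071 genes called higher. Of 4 squamous epithelium genes tested, 0 were called in either direction.

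CXCL8 stood at 128 CPM against 54.4 CPM at 1-day, 172 CPM against 108 CPM at 3-day, and 693 CPM against 343 CPM at 7-day, a log2 difference of 0.96 ± 0.10 (adjusted p = 0.0035). It was higher in SPP1-high cells in each of the 4 libraries, while CXCL1 was not called in the treated ones (0.37 ± 0.12, adjusted p = 0.13). CCL20, another chemokine gene, was called (1.05 ± 0.12, adjusted p = 0.0051). Of 17 NF-kB targets tested, 3 were called higher and 0 lower, with a median log2 difference of 0.15, against 1.64% of all 12071 genes called higher. LCN2 of that list, lower in SPP1-high Ctrl cells (-0.66, -0.92 to -0.40), was called higher in the treated libraries (1.53 ± 0.14, edgeR adjusted p = 0.0024). FGF19, low in these libraries, stood at 18.8 CPM against 2.08 CPM, 17.8 CPM against 8.59 CPM, and 31.3 CPM against 3.31 CPM at 1-day, 3-day and 7-day, a log2 difference of 2.26 ± 0.36 (adjusted p = 0.014). Of 8 EGFR ligands and receptors tested, 2 were called higher and 0 lower, with a median log2 difference of 0.24, against the same 1.64%. They were the ligands EREG (0.93 ± 0.12, edgeR adjusted p = 0.0060) and AREG (0.84 ± 0.15, edgeR adjusted p = 0.021), with Ctrl log2 ratios of 0.48 and 0.29. At 7-day AREG stood at 1341 CPM against 1109 CPM, a log2 ratio of 0.27. Over 10 alternatives EREG was called in 7 and AREG in 6.

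For the lists that follow, the share of all 12071 genes called higher was 1.64%. Of 13 NRF2 targets, 9 were called higher and none lower, with a median log2 difference of 0.61. AKR1C1 stood at 678 CPM against 353 CPM at 1-day, 252 CPM against 104 CPM at 3-day and 207 CPM against 78.3 CPM at 7-day, a log2 difference of 1.18 ± 0.11 (adjusted p = 0.0024). SPP1-high cells were above SPP1-low cells at each time. NQO1, a quinone reductase, had 0.61 ± 0.09 (adjusted p = 0.011). MT2A, which was higher in Ctrl, was not called (-0.06 ± 0.12, adjusted p = 0.84) and stood lower in SPP1-high cells at 1-day and 3-day. In the lysosome list 4 of 12 genes were called higher and none lower, with CTSD at 0.77 ± 0.13 (adjusted p = 0.017). Among the receptors, 3 of 8 were called higher and none lower: ITGAV (0.41 ± 0.09, adjusted p = 0.040), ITGB6 (0.63 ± 0.09, adjusted p = 0.011) and ITGB8 (0.61 ± 0.12, adjusted p = 0.033). Over 10 alternatives ITGAV was called in 6, ITGB6 in 7 and ITGB8 in 4, and the lowest log2 differences were 0.22, 0.41 and 0.13. HLA class I had 3 of 12 called higher, with HLA-C at 0.51 ± 0.08 (adjusted p = 0.012). CAV1 (0.62 ± 0.10, adjusted p = 0.017), TSPAN1 (0.86 ± 0.08, adjusted p = 0.0024), ANXA10 (1.71 ± 0.20, adjusted p = 0.0047), SLC3A2 (0.79 ± 0.08, adjusted p = 0.0024) and ITM2B (0.60 ± 0.07, adjusted p = 0.0058) were called in the direction they had in Ctrl. CHPT1 was not called (-0.18 ± 0.10, adjusted p = 0.37).

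**Figure D4:**
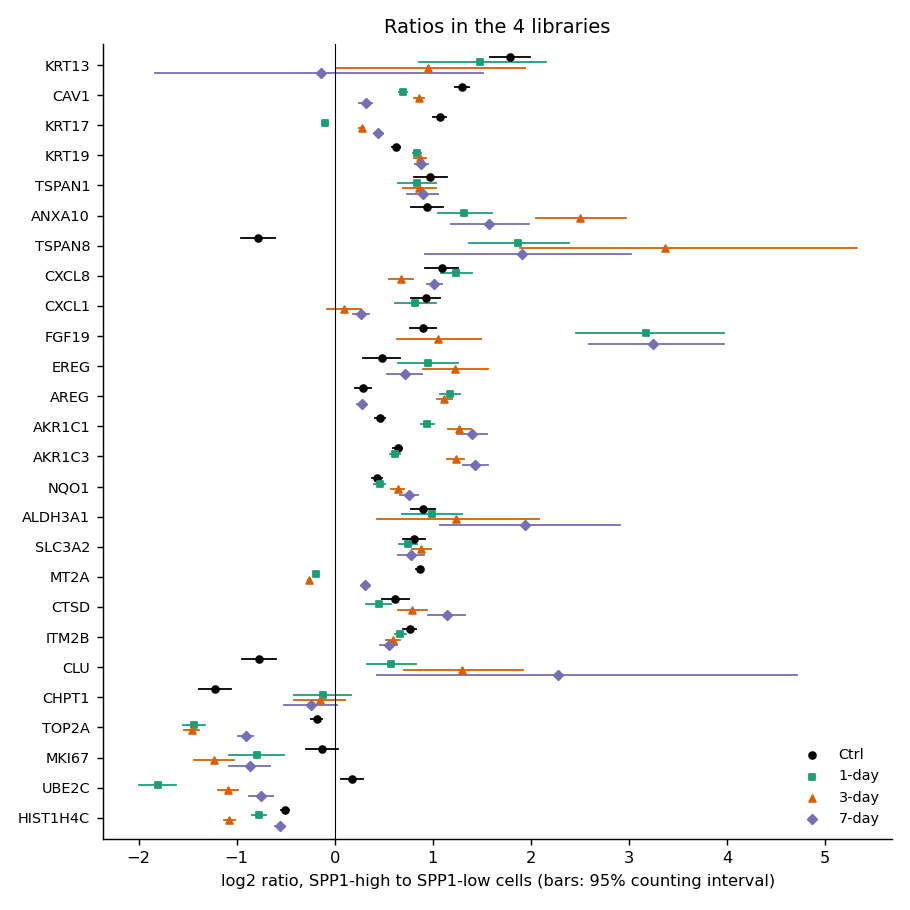
Log2 ratio of SPP1-high to SPP1-low cells for named genes in the 4 libraries (symbols), with 95% counting intervals (bars). KRT19, TSPAN1, SLC3A2 and ITM2B lie above 0 in each library, TSPAN8 and CLU lie below 0 in Ctrl and above 0 in the treated libraries, and TOP2A and MKI67 lie farther below 0 in the treated libraries than in Ctrl.

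Mitotic genes were also read in both settings. In Ctrl, TOP2A, the topoisomerase of dividing cells, stood at 662 CPM in SPP1-high and 753 CPM in SPP1-low cells (log2 ratio -0.19) and the proliferation marker MKI67 at 77.2 CPM and 84.4 CPM (-0.13). None of the 6 mitosis genes of at least 50 CPM was past 0.5, while 4 of the 8 below that level were, all upward. They were CENPE at 0.69 (0.38 to 1.02), KIF20A at 0.62 (0.22 to 1.03), BUB1 at 0.58 (-0.0018 to 1.16) and CCNB1 at 0.51 (0.30 to 0.71). BUB1 rested on 62 and 45 UMIs. Ratios past 0.5 were also more frequent among all genes at lower floors. With a floor of 10 CPM, 564 of 7557 genes were at least 0.5 higher and 150 at least 0.5 lower. Without a floor the counts were 2421 and 1962 of 15820 genes. The 6 mitosis genes of at least 50 CPM had a median Ctrl ratio of -0.05, with 3 above 0. The Ctrl phase shares differed more, with 29.1% of SPP1-high and 44% of SPP1-low cells in G2M. Summed UMIs can rest on few cells: 5 cells held 30.3% of the UBE2C UMIs of SPP1-high cells and 17.3% of those of SPP1-low cells. The median cell held 5 TOP2A UMIs in SPP1-high and 13.5 in SPP1-low cells. In the treated libraries 11 of all 14 mitosis genes were called lower in SPP1-high cells and none higher, with a median of -0.87, against 1.61% of all genes tested that were called lower. The 11 include all 6 that reached 50 CPM in Ctrl. TOP2A stood at 111 CPM against 301 CPM at 1-day, 268 CPM against 736 CPM at 3-day and 340 CPM against 638 CPM at 7-day, a log2 difference of -1.27 ± 0.12 (edgeR adjusted p = 0.0024). Among G1 cells alone TOP2A had -0.44 and was not called. G2M shares moved alongside: 8.51% of SPP1-high and 20% of SPP1-low cells at 1-day, 11.3% and 41.2% at 3-day, and 23.1% and 47.6% at 7-day. G1 shares were 81.3% and 67.2%, 56.5% and 31.6%, and 45.5% and 27.3% in the same order. Phase is assigned from mitotic and replication genes, TOP2A and MKI67 among them, so these shares and the gene values are not separate measures. The difference between Ctrl and the treated libraries was not tested.

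**Figure D5:**
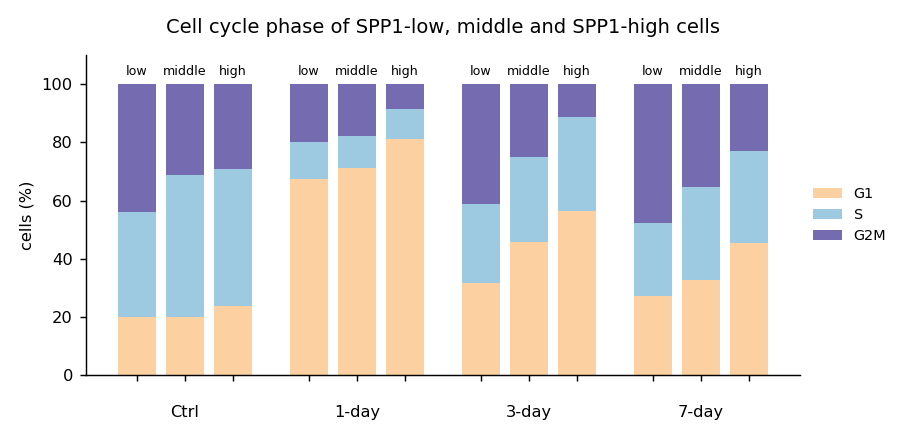
Share of cells (%) assigned to G1, S and G2M in SPP1-low, middle and SPP1-high cells of each library, 1 stacked bar per class. In Ctrl the G2M share is 44% in SPP1-low and 29.1% in SPP1-high cells with similar G1 shares, whereas in the treated libraries the G1 share is the larger one in SPP1-high cells.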

How the data were processed

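The authors aligned reads to GRCh38 with Cell Ranger (version 2.0.1 per the labels) and deposited raw UMI counts for each gene in each cell. The copies analysed here hold the first cells of each library: 3170 complete cells (941 Ctrl, 945 1-day, 712 3-day, 572 7-day) of 10710 barcodes. Cells with more than 200 genes and at most 20% mitochondrial UMIs were retained: 933, 937, 705 and 569 cells with 29995994, 32949874, 32139723 and 25382817 UMIs. Pairs of libraries shared 1 to 7 barcodes. Scrublet in scanpy 1.11.5 marked 43 doublets (1.37%), which were retained except in 1 alternative.

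CPM were taken from UMIs summed per class, with exact Poisson intervals, exact conditional (Clopper-Pearson) 95% intervals of log2 ratios and exact binomial intervals of shares. Genes of at least 50 CPM were compared in Ctrl, and a log2 ratio of 0.5 was the limit. Ctrl has 1 library, so no test was made. The treated libraries were tested with edgeR 4.0.16 (TMM, filterByExpr, SPP1 removed), and with DESeq2 1.42.0 as an alternative. Both steps were run on simulated sums with known changes. These sums had no clumping of UMIs in few cells and the same change in each library, so they checked the computation only. Phases used Seurat 5.3.0 gene lists.

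Named genes were SPP1, the 20 highest and 15 lowest Ctrl ratios, list members and the 10 highest correlations with SPP1. BUB1, CCL20, CCNB1, CENPE, CXCL2, HIST1H4C, KIF20A, KRT14, KRT15, LCN2, LMO4, NFKBIA, SLPI, TNFAIP2 and some chromosome 4, 7 and 12 genes were added after their values were seen. The members, lists and tests were chosen with earlier results of these data known. Alternatives changed the mitochondrial limit, doublets, depth, class limits, phase, scaling, floor and barcode set, and, for the treated test, tool, factors, filter, block and libraries. Gene positions are from GENCODE release 44. RefSeq protein sequences were not used here.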

Additional observations from a re-analysis of the deposited data

Results flagged for a closer look

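Both results below came up because Ctrl lay past 0.5 on the log2 scale in one direction and all 3 treated libraries in the other. The difference between Ctrl and the treated libraries was not tested for any of these genes. TSPAN8 had a log2 ratio of SPP1-high to SPP1-low cells of -0.78 in Ctrl, where it stood at 59.2 CPM in SPP1-high and 101.6 CPM in SPP1-low cells, and of 1.86, 3.37 and 1.91 at 1-day, 3-day and 7-day. Among G1 cells alone the Ctrl ratio was -0.37. Its level was low in the treated libraries, at 18.5 CPM against 5.08 CPM, 4.87 CPM against 0.471 CPM and 6.53 CPM against 1.73 CPM. CLU had -0.77 in Ctrl and 0.58, 1.30 and 2.27 in the treated libraries, with 2.28 CPM and 0.472 CPM at 7-day. TSPAN8 was called in the treated libraries (2.07 ± 0.26, edgeR adjusted p = 0.0058) and CLU was not (0.86 ± 0.22, adjusted p = 0.069). With 1 library per condition, samples that lie far from others of their group could not be looked for.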

How the results depend on the processing

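Counts of Ctrl genes past the limit depended on the class limits, the scaling and the floor. Higher and lower genes numbered 339 and 81 with the highest and lowest 10% of cells, 26 and 5 with cells above and below the median, 215 and 66 among G1 cells alone, 67 and 55 with median-of-ratios scaling, 564 and 150 of 7557 genes with a floor of 10 CPM, 2421 and 1962 of 15820 genes without a floor, and 6 and 1 at a log2 ratio of 1. Lower genes numbered 34 in thinned cells and 41 in cells with earlier barcodes. Among G1 cells alone, with quartiles set anew among these few cells, KRT13 turned to -0.64 and HSPA5 to -0.11. The G2M share of SPP1-high cells was 36.2% in the highest 10%. The chromosome 4 median was 0.43, 0.22, 0.25 and 0.28 with the 10% limits, the median split, median-of-ratios scaling and later barcodes; that of chromosome 7 was 0.21 and 0.025 with the 10% limits and median-of-ratios scaling; that of chromosome 12 was -0.21, -0.094 and -0.26 with the first 3 of these.

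In the treated libraries, higher and lower calls numbered 478 and 426 of 20606 genes without the filter, 120 and 119 in thinned cells, 14 and 6 among G1 cells alone, and 119 higher with DESeq2. Leaving out 1 library gave 26 to 687 higher and 14 to 643 lower calls. Without the library as a block, edgeR called 0 and 0 genes (215 and 166 at an unadjusted p below 0.05). UBE2C turned to 0.068 among G1 cells alone (edgeR adjusted p = 0.95). Over the alternatives of 35 named genes in the treated libraries, 250 values kept their direction and side of the threshold and 98 kept their direction but lost the call. The causes of these changes were not tested. The treated test is paired by its block, which joins both classes of cells from the same library; Ctrl, with 1 library, has no such test.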
